A study of Mus musculus with 12 samples.

Results

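Lineage transcription factors of the mammary epithelium were followed through a dose series of the GSK3 inhibitor CHIR99021 in mouse mammary organoids. The members were the rows of the count table with the symbols Trp63, Id4, Gata3, Elf5, Foxa1, Tfap2c, Ehf, Elf3, Runx1 and Bcl11a, which are 10 of 25210 genes in the table. Each symbol matched 1 row, and all 10 passed the filter on low counts. Foxa1 reached that filter mainly through culture 3. The organoids came from virgin female FVB/N mice of 8 to 11 weeks and grew in growth-factor-reduced Matrigel and minimal medium. The 4 groups of 3 libraries were compared: vehicle (dimethyl sulfoxide, DMSO) and CHIR99021 at 1, 1.5 and 3 µM, each for 7 days. Every one of the 3 cultures (replicates 1, 2 and 3, each from 1 animal) received all 4 treatments, so a group holds 3 animals and the groups share them. The sample titles also tag replicates 1, 2 and 3 as med, min and max, without a stated meaning. Whatever the tag stands for cannot be told apart from the culture. CHIR99021 blocks GSK3, the kinase that marks β-catenin (CTNNB1) for degradation, and was added to raise WNT/CTNNB1 activity. The comparison asks how the factors that set basal and luminal identity are expressed as this pathway is driven harder.

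The mammary epithelium has an outer basal layer, which includes the contractile myoepithelial cells, and an inner luminal layer of hormone-sensing and milk-producing alveolar cells. p63 (Trp63) maintains basal cells of stratified and glandular epithelia, and ID4, an inhibitor of basic helix-loop-helix factors, marks mammary basal cells. GATA3 and FOXA1 act with the oestrogen receptor in the luminal lineage, and the ETS factor ELF5 directs alveolar development.

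Library totals ran from 10.1 to 24.5 M counts (M, mega). Epcam and Cdh1, which mark epithelium, were present in all 12 libraries, from 366 to 847 counts per M counts (CPM, on library sizes scaled with edgeR's TMM factors). Genes of other cell types were present too. The summed level of 10 fibroblast genes ran from 4111 to 24551 CPM in DMSO and from 244 to 5432 CPM at 3 µM, and culture 3 was the highest at every dose. Fewer cells of a type and less RNA per cell cannot be told apart in bulk libraries such as these.

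At 3 µM the basal factor Trp63 was 6.39-fold higher than in DMSO and the other basal factor, Id4, was 7.34-fold lower. Of the luminal factors, Gata3 was lower in 3 of 3 cultures. It did not pass the test without a block but did with the culture as a block. Elf5 and Foxa1 passed in neither fit. Ehf and Tfap2c rose at 3 µM and Runx1 fell. In all, 5 of 10 factors passed an adjusted p of 0.05 at 3 µM, 3 higher and 2 lower, where 57.5% of the 15316 genes tested passed (29.9% higher and 27.7% lower). The share of members was thus close to that of all genes. With the culture as a block 6 factors passed at 3 µM, where 68.9% of genes did. At 1.5 µM 3 factors rose and 0 fell, where 27.3% of genes passed (15.4% higher and 11.8% lower), and at 1 µM 0 of 10 passed, where 0.242% of genes did. At an unadjusted p under 0.05, 1 factor (Runx1) passed at 1 µM in edgeR, where 11.7% of genes did, and DESeq2 called 1 after adjustment, where it called 3.51% of genes. With the block 0 factors passed at 1 µM and 5.61% of genes did. The groups of 5 factors did not overlap those of DMSO at 3 µM (60.8% of genes) and those of 4 at 1.5 µM (45.6% of genes). The 3 doses were compared with the same DMSO libraries.

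**Figure D1:**
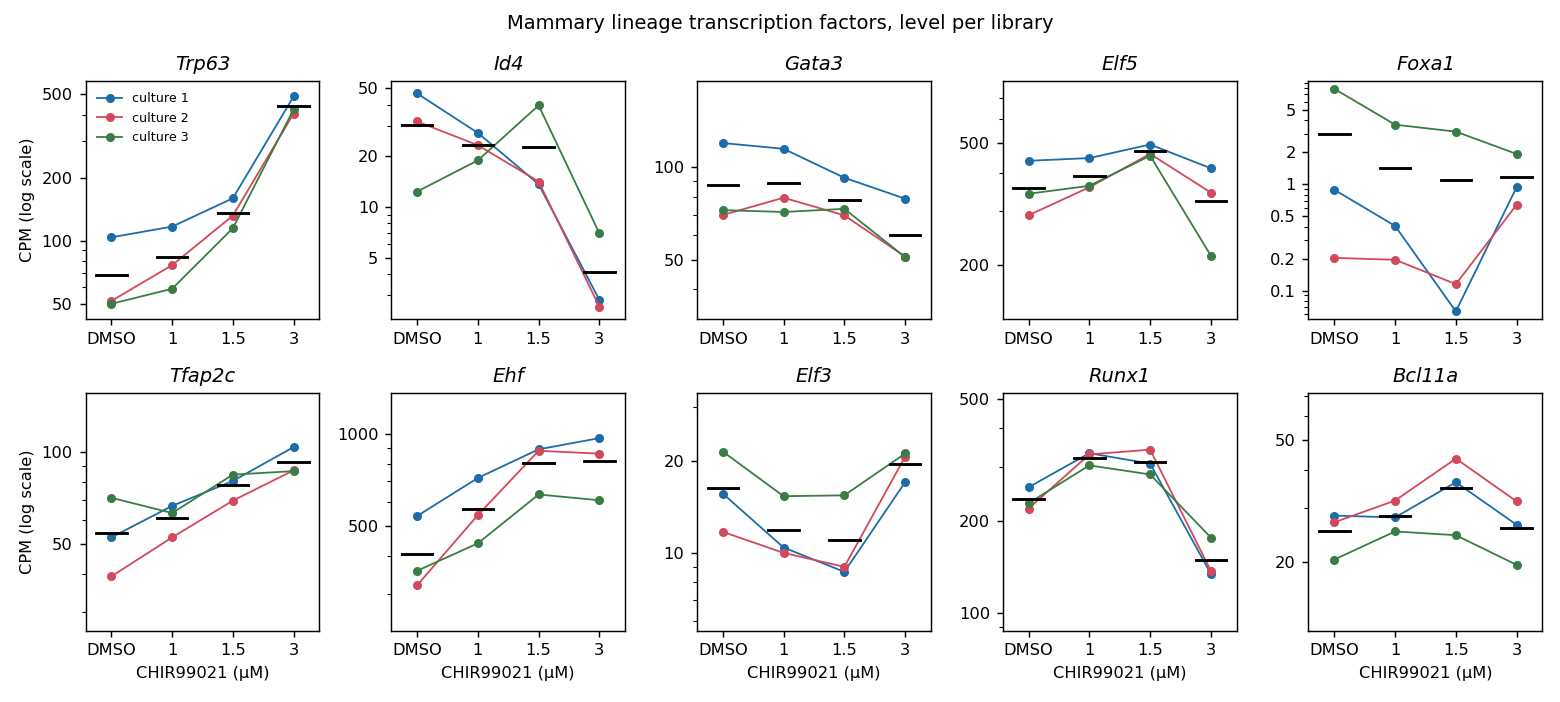
Level of each of the 10 factors in every library, in CPM on a log scale whose range differs between panels, against the CHIR99021 dose at even spacing. Lines join the libraries of 1 culture and black bars are group means (n = 3). Trp63 runs from 50.1 to 104 CPM in DMSO and from 405 to 489 CPM at 3 µM, and Id4 from 12.3 to 46.7 CPM and from 2.57 to 6.97 CPM.

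Trp63 (ENSMUSG00000022510, chr16:25683763-25892102, plus strand, GRCm38) was at 104, 51.7 and 50.1 CPM in the DMSO libraries of cultures 1, 2 and 3. It was at 117, 76.6 and 59.1 CPM at 1 µM and at 159.7, 132 and 115 CPM at 1.5 µM. At 3 µM it reached 489, 405 and 424 CPM. Every culture rose at every step, the ranges at 1.5 and 3 µM lay above that of DMSO, and culture 1 was the highest at each dose. Means were 68.6 ± 30.7 CPM in DMSO and 439 ± 43.8 CPM at 3 µM (SD, n = 3), a log2 fold change of 2.68 ± 0.329 (SE) with an adjusted p of 9.5e-05. From 1.5 to 3 µM Trp63 rose 3.24-fold (log2 1.70 ± 0.317, adjusted p = 0.00391), and no library left out in turn ended either call. Over the whole series the slope was 0.92 log2 units per µM (adjusted p = 2.72e-05).

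The Trp63 difference at 1.5 µM was 0.98 ± 0.312 on the log2 scale with an adjusted p of 0.0414, and 0.00125 with the culture as a block. Without the block this call was lost when any 1 of 8 libraries was left out. These were DMSO replicates 2 and 3 (adjusted p = 0.162 and 0.146), 1 µM replicate 2 (0.0584), 1.5 µM replicates 1 and 2 (0.13 and 0.0868) and 3 µM replicates 1, 2 and 3 (0.0607, 0.0645 and 0.0561). With libraries scaled to the epithelial genes Epcam and Cdh1, the log2 difference was 0.53 at 1.5 µM (adjusted p = 0.0722) and 2.35 at 3 µM (3.78e-06). With TMM scaling these genes were themselves above DMSO, by log2 0.33 (Epcam) and 0.68 (Cdh1) at 1.5 µM. At 3 µM they were above it by 0.37 and 0.4. None of these passed, but Cdh1 did with the culture as a block (adjusted p = 0.00169 at 1.5 µM and 0.00943 at 3 µM). Scaling to them therefore lowers the difference of every factor at both doses. Counts per gene cannot separate the Trp63 isoforms with and without the transactivation domain.

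Id4 (ENSMUSG00000021379, chr13:48261427-48264036, plus strand) was at 46.7, 31.9 and 12.3 CPM in DMSO and at 27.3, 23.1 and 18.8 CPM at 1 µM. At 1.5 µM the 3 cultures stood at 13.6, 14.1 and 39.7 CPM, and at 3 µM at 2.82, 2.57 and 6.97 CPM. Cultures 1 and 2 were lower at each higher dose, while culture 3 was at its highest at 1.5 µM. All 3 libraries at 3 µM lay below every other library of the series. The log2 fold change at 3 µM was -2.88 ± 0.617 (adjusted p = 0.00277), and means were 30.3 ± 17.2 CPM in DMSO and 4.12 ± 2.47 CPM at 3 µM (SD, n = 3).

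Within the cultures, the log2 difference of Id4 at 3 µM was -3.99, -3.58 and -0.81. At 1.5 µM it was -1.77 and -1.17 in cultures 1 and 2 and 1.68 in culture 3. The pooled difference at 1.5 µM was -0.43 ± 0.563 (adjusted p = 0.597), and without culture 3 it was -1.50 (adjusted p = 0.004). Culture 3 held the highest fibroblast sum at 1.5 µM, with 14867 CPM against 1609 and 3361 CPM in cultures 1 and 2. It also held the highest sum in DMSO (24551 CPM) and at 1 µM (23496 CPM). There its Id4 level was the lowest of the cultures (12.3 and 18.8 CPM). At 3 µM both its sum (5432 CPM) and its Id4 level (6.97 CPM) were the highest. The part of these cells in the Id4 values was not tested. The fall of Id4 from 1.5 to 3 µM was -2.44 ± 0.608 (adjusted p = 0.0144), and it no longer passed without 3 µM replicate 1 (0.056) or replicate 2 (0.0619). The antisense gene A330033J07Rik overlaps Id4 exons and had at most 11% of the Id4 counts in a library. Whether the counting used the strand is not given in the sources used here.

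**Figure D2:**
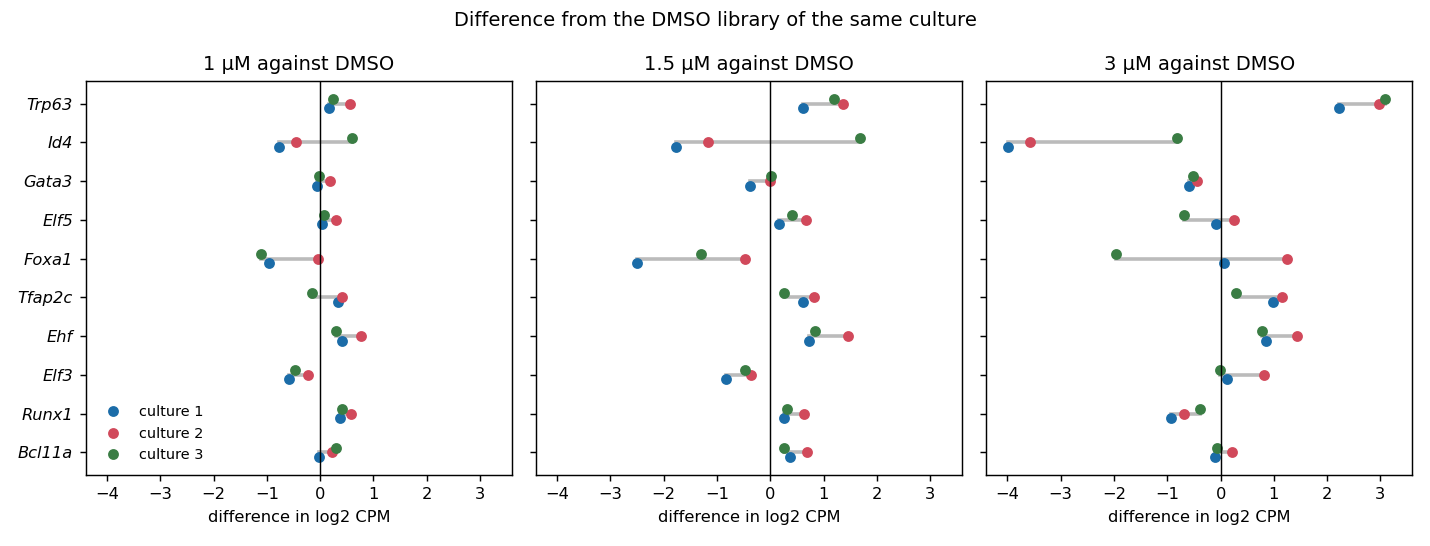
Difference in log2 CPM between each treated library and the DMSO library of the same culture, for the 10 factors at 1, 1.5 and 3 µM. Points are cultures and grey bars join the lowest and highest. At 3 µM Trp63 lies at 2.23, 2.97 and 3.08, Gata3 at -0.60, -0.45 and -0.51, and Id4 spreads from -3.99 to -0.81.

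Gata3 (ENSMUSG00000015619, chr2:9857078-9890034, minus strand), the zinc-finger factor of luminal cells, was at 120.1, 69.9 and 72.5 CPM in DMSO. It was at 115, 79.6 and 71.5 CPM at 1 µM and at 92.5, 69.7 and 73.2 CPM at 1.5 µM. At 3 µM it was at 79.0, 51.1 and 50.9 CPM. Culture 1 was the highest at each dose, and its 3 µM library lay within the DMSO range, so the groups overlap. The log2 difference at 3 µM was -0.54 ± 0.269 (adjusted p = 0.11). With the culture as a block it was -0.53 and passed (adjusted p = 0.000561). The 3 within-culture differences lay between -0.60 and -0.45. Without 3 µM replicate 1 it was -0.81 (adjusted p = 0.0397), and scaled to Epcam and Cdh1 it was -0.90 (0.00794). The gene 4930412O13Rik lies on the opposite strand within the Gata3 span, and its counts reached 10.7% of those of Gata3.

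Elf5 (ENSMUSG00000027186, chr2:103411688-103450989, plus strand), the alveolar ETS factor, was at 437, 290.2 and 341 CPM in DMSO and at 446, 358 and 362 CPM at 1 µM. At 1.5 µM it was at 494, 460.4 and 454 CPM, and at 3 µM at 413, 344 and 214 CPM. The 1.5 µM libraries were the highest of each culture and lay above all DMSO libraries, whereas the 3 µM libraries spread across and below the DMSO range. The log2 difference from DMSO was 0.40 ± 0.224 at 1.5 µM (adjusted p = 0.211, and -0.10 when scaled to Epcam and Cdh1) and -0.14 ± 0.224 at 3 µM (adjusted p = 0.614). From 1.5 to 3 µM it was -0.54 ± 0.224 (adjusted p = 0.0966), with a block -0.57 (adjusted p = 0.0202). It also passed without 3 µM replicate 1 (-0.75, adjusted p = 0.046). Within the cultures the step was -0.26, -0.42 and -1.09, the largest in culture 3.

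Foxa1 (ENSMUSG00000035451, chr12:57540631-57546121, minus strand), a pioneer factor of hormone-sensing luminal cells, was close to the limit of detection in 2 of the 3 cultures. Culture 1 had 20, 8, 1 and 12 counts at DMSO, 1, 1.5 and 3 µM, and culture 2 had 2, 4, 3 and 10. Culture 3 had 147, 64, 54 and 28 counts, or 7.92, 3.64, 3.13 and 1.93 CPM. Culture 3 was thus above the others at each dose and its own values went down with dose, while those of cultures 1 and 2 did not. The log2 difference at 3 µM was -1.38 ± 1.53 (adjusted p = 0.462), and without culture 3 it was 0.36 (adjusted p = 0.673). From 1.5 to 3 µM the difference was 0.11 ± 1.56 (adjusted p = 0.967) with all libraries and 2.95 (adjusted p = 0.0384) without culture 3, where it rests on at most 12 counts a library. These depths leave the dose response of Foxa1 unresolved.

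The ratio of Trp63 to Gata3 counts within a library sets a basal against a luminal factor without any scaling between libraries. It was 0.866, 0.74 and 0.692 in DMSO for cultures 1, 2 and 3, and 6.18, 7.93 and 8.34 at 3 µM. All 3 cultures moved the same way, and their 3 µM values lay far above their DMSO values. The ratio of Id4 to Gata3 moved the opposite way, from 0.389, 0.456 and 0.17 in DMSO to 0.0357, 0.0503 and 0.137 at 3 µM. At 1.5 µM the Id4 ratio in culture 3 was 0.543, above its DMSO value, while cultures 1 and 2 were at 0.147 and 0.202. Trp63 relative to Id4 went from 2.23, 1.62 and 4.07 to 173, 158 and 60.9. Counts of different genes depend on length, so only the change of a ratio between doses is compared here.

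**Figure D3:**
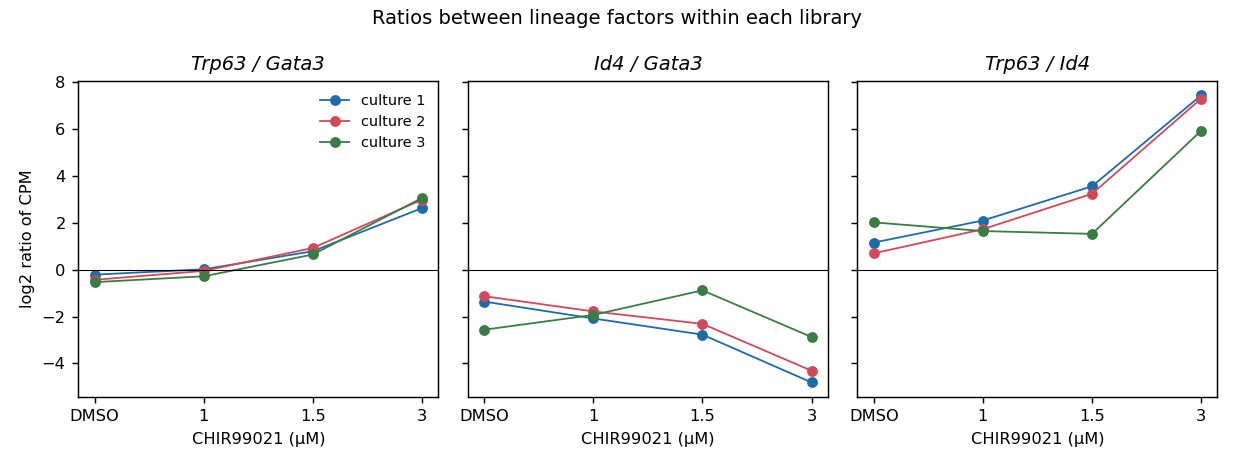
Log2 ratio of CPM between factors within each library, for Trp63 to Gata3, Id4 to Gata3 and Trp63 to Id4, against the CHIR99021 dose at even spacing. Each line is 1 culture. The first ratio rises to between 2.63 and 3.06 at 3 µM, and the second falls to between -4.81 and -2.87.

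Ehf (ENSMUSG00000012350, chr2:103263433-103303278, minus strand) is an epithelial ETS factor that neighbours Elf5, with 108410 bp between the genes. It was at 539, 320.0 and 357 CPM in DMSO and at 718, 543 and 439 CPM at 1 µM. It was at 890.5, 881 and 634 CPM at 1.5 µM and at 969, 862 and 607 CPM at 3 µM. All 1.5 and 3 µM libraries exceeded all DMSO libraries, and the levels at those doses overlapped each other. Ehf was 2.01-fold higher at 3 µM (log2 1.00 ± 0.262, adjusted p = 0.00807), with 0.02 ± 0.26 between 1.5 and 3 µM (adjusted p = 0.963).

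At 1.5 µM Ehf rose by 0.98 ± 0.262 on the log2 scale (adjusted p = 0.0199). Without the block, leaving out DMSO replicate 2 (0.0925) or 3 (0.0763) or 1.5 µM replicate 1 (0.0681) or 2 (0.0641) ended that call. Scaling to Epcam and Cdh1 ended it too (0.48, adjusted p = 0.128). With the culture as a block Ehf passed at 1.5 µM. The ratio of Ehf to its neighbour Elf5 rose in each culture, from 1.23, 1.1 and 1.05 in DMSO to 2.34, 2.50 and 2.84 at 3 µM.

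Elf3 (ENSMUSG00000003051, chr1:135253575-135258568, minus strand), a further epithelial ETS factor, was at 15.6, 11.7 and 21.4 CPM in DMSO and at 10.4, 9.99 and 15.3 CPM at 1 µM. It was at 8.66, 8.99 and 15.4 CPM at 1.5 µM and at 17.0, 20.6 and 21.1 CPM at 3 µM. Each culture was lower at 1 and 1.5 µM than in DMSO, and each was back at or above its DMSO level, within 0.02 log2 units, at 3 µM. The log2 difference from 1.5 to 3 µM was 0.83 ± 0.286 (adjusted p = 0.051), and with the block 0.88 (adjusted p = 0.00277). It passed without DMSO replicate 2 (0.0432) or 3 (0.0427), 1 µM replicate 3 (0.0475) or 1.5 µM replicate 3 (0.0189). Against DMSO the 1.5 µM difference of Elf3 was -0.56 ± 0.285 (adjusted p = 0.167, with the block 0.019, and 0.0457 without 1.5 µM replicate 3). The antisense gene Gm26642 overlaps Elf3 exons, with up to 17.6% of its counts.

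Tfap2c (ENSMUSG00000028640, chr2:172549593-172558622, plus strand) encodes AP-2γ, a factor of luminal and ectodermal epithelia. It was at 52.7, 39.3 and 71.0 CPM in DMSO and at 66.8, 52.7 and 63.3 CPM at 1 µM. It was at 80.6, 69.5 and 84.5 CPM at 1.5 µM and at 104, 87.3 and 86.8 CPM at 3 µM. The 3 µM libraries lay above all others, and culture 3, with the highest DMSO level, gained least. Tfap2c rose by 0.77 ± 0.191 on the log2 scale at 3 µM (adjusted p = 0.00611). Scaled to Epcam and Cdh1 the difference was 0.32 (adjusted p = 0.416). At 1.5 µM it was 0.52 ± 0.19 (adjusted p = 0.065, with the block 0.0117, and 0.0151 without DMSO replicate 3), and -0.01 with that scaling.

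Runx1 (ENSMUSG00000022952, chr16:92601466-92826149, minus strand), a Runt-domain factor of the mammary epithelium, was at 257, 219 and 228 CPM in DMSO. It was at 332, 329 and 303 CPM at 1 µM and at 307, 341 and 283 CPM at 1.5 µM. At 3 µM it was at 134, 137 and 176 CPM. The 1 and 1.5 µM libraries all lay above DMSO, and the 3 µM libraries all lay below it. At 3 µM Runx1 fell by 0.65 on the log2 scale (SE 0.12, adjusted p = 0.00106), and from 1.5 to 3 µM it fell by 1.06 (SE 0.12, adjusted p = 0.000398). No library left out in turn ended these calls.

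Below 3 µM the Runx1 difference was 0.45 ± 0.119 at 1 µM (adjusted p = 0.163, DESeq2 0.0215) and 0.40 ± 0.119 at 1.5 µM (adjusted p = 0.031), but -0.13 (0.636) at 1.5 µM when scaled to Epcam and Cdh1. In unblocked fits the 1.5 µM call for Runx1 was also lost without DMSO replicate 2 (0.138) or 3 (0.118). It was lost too without 1.5 µM replicate 1 (0.0746) or 2 (0.113). With the culture as a block Runx1 passed at 1.5 µM. Its slope over the series, -0.26 per µM, did not pass (adjusted p = 0.0652). It passed in DESeq2 (0.017), when scaled to Epcam and Cdh1 (0.00426), and without DMSO replicate 2 (0.0246) or 3 (0.0276) or 1.5 µM replicate 2 (0.0493).

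Bcl11a (ENSMUSG00000000861, chr11:24078056-24174123, plus strand), a zinc-finger factor of luminal progenitors, was at 28.4, 27.0 and 20.4 CPM in DMSO and at 28.0, 31.8 and 25.2 CPM at 1 µM. It was at 36.5, 43.6 and 24.5 CPM at 1.5 µM and at 26.5, 31.6 and 19.6 CPM at 3 µM. Each culture was above its DMSO level at 1.5 µM, and the DMSO and 3 µM ranges overlap. The difference at 1.5 µM was 0.47 ± 0.234 (adjusted p = 0.164, with the block 0.0107, and 0.0493 without 1.5 µM replicate 3), and -0.09 when scaled to Epcam and Cdh1. At 3 µM it was 0.04 ± 0.235 (adjusted p = 0.905), and -0.36 with that scaling.

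The factors were also compared between neighbouring doses. From 1 to 1.5 µM 0 of 10 passed in edgeR, where 5.43% of genes did, with 0 at an unadjusted p under 0.05 (21.5% of genes) and 0 in DESeq2 (10.7% of genes). With the culture as a block 2 passed (Ehf and Trp63), where 21.9% of genes did. From 1.5 to 3 µM 3 of 10 passed, Trp63 higher and Id4 and Runx1 lower, where 29.7% of genes did. With the block 7 passed, 2 higher and 5 lower, against 46.7% of genes. At this step 6 factors had groups that did not overlap, where 42.8% of genes had none. From 1 to 3 µM 4 passed (52.0% of genes), Trp63 and Tfap2c higher and Id4 and Runx1 lower, and 7 with the block (66.0% of genes). Of these, Tfap2c did not pass without 1 µM replicate 2 (adjusted p = 0.0813) or 3 µM replicate 1 (0.0739). On the slope over dose 4 of 10 passed (58.2% of genes), namely Trp63, Ehf and Tfap2c upward and Id4 downward, and 5 with the block (64.5% of genes). The slope of Gata3 passed without DMSO replicate 2 (adjusted p = 0.0335) or 3 (0.0366) or 3 µM replicate 1 (0.0351). At 1.5 µM against DMSO the block gave 6 factors, 5 higher and 1 lower, where 46.7% of genes passed.

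The cultures differed in the level of several factors. In a fit with group and culture, 6 of 10 factors differed between cultures (adjusted p under 0.05), where 28.8% of genes did. Gata3 (adjusted p = 0.000907) and Trp63 (0.0147) were the highest in culture 1, Foxa1 (0.00273) and Elf3 (0.0236) in culture 3, and Bcl11a (0.00714) and Ehf (0.0128) were the lowest in culture 3 by their mean over the doses. Id4 (0.774) and Runx1 (0.991) did not pass. A difference between cultures in the slope over dose was called for 0 of 10 factors and 0% of all genes, with 1 factor (Tfap2c) at an unadjusted p under 0.05. The fibroblast sum also ordered the cultures, with culture 1 the lowest and culture 3 the highest at every dose, and its part in these differences was not tested.

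Levels of different factors were compared per kilobase of exon in GENCODE M21, whose spans of Id4 and Foxa1 differ from those in the table. In DMSO Ehf (72.7 ± 21 CPM per kb) and Elf5 (60.6 ± 12.7) led, and their ranges overlapped. Gata3 (22.0 ± 7.1), Runx1 (19.5 ± 1.63) and Tfap2c (14.8 ± 4.32) followed, each overlapping the next, and Tfap2c overlapped Trp63 (8.18 ± 3.66). Trp63, Id4 (7.87 ± 4.47) and Elf3 (7.32 ± 2.20) were not separated by their ranges. Bcl11a (1.92 ± 0.324) and Foxa1 (0.903 ± 1.28) were the lowest (SD, n = 3 each). At 3 µM Ehf led with 146 ± 33.3, and Trp63 (52.4 ± 5.22) came next after Elf5 by mean level, and its range overlapped that of Elf5 (55.1 ± 17.3). Tfap2c (25.2 ± 2.65), Gata3 (15.2 ± 4.07), Runx1 (12.4 ± 1.93) and Elf3 (8.83 ± 1.01) followed. Of these neighbours only Gata3 and Runx1 overlapped. Id4 was at 1.07 ± 0.642, with a range that overlapped that of Bcl11a (1.97 ± 0.456) and lay above Foxa1 (0.352 ± 0.203).

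Promoter sequence was at hand for 7 of the 10 factors, with 9 start sites, from RefSeq on GRCm38.p6. Searches for 6 motifs covered both strands of the 250 bases before each start. The TCF/LEF motif, bound by the factors through which β-catenin reaches DNA, was CTTTGAT. The motif of forkhead factors such as FOXA1 was searched as GTAAACA. That of the Runt-domain factors was searched as TGTGGTT. For the GATA family, which includes GATA3, the letters were AGATAA. For the ETS family, to which ELF5, EHF and ELF3 belong, they were CCGGAA. The AP-2 motif was GCCNNNGGC, which reads the same on both strands. No matches overlapped in the printed sequences, and a match on the opposite strand appears as its reverse complement. Printed are the starts of Id4 (chr13:48260866-48261115, plus strand) and Runx1 (chr16:92826075-92826324 and chr16:92697330-92697579, minus strand), which fell at 3 µM. The start of Gata3 (chr2:9878601-9878850, minus strand) and the downstream start of Elf5 (chr2:103423818-103424067, plus strand) stand for the luminal factors. Each is given 5′ to 3′ on the strand of the gene, with motif matches in capitals.
Id4: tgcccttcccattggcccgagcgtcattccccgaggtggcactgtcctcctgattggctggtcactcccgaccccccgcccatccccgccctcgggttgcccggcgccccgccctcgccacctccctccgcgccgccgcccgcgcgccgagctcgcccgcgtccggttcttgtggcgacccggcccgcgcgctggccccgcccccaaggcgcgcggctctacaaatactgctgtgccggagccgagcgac
Runx1 upstream start: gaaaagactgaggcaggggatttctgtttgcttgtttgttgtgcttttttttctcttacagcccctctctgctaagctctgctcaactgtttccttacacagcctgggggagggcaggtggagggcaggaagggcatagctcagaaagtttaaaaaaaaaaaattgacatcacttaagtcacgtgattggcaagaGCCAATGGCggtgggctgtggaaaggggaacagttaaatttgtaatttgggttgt
Runx1 downstream start: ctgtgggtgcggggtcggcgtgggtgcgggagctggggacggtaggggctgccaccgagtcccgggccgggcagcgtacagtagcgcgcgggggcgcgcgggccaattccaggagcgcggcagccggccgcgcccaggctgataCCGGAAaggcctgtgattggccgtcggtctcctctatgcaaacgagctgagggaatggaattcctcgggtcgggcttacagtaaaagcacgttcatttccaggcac
Gata3: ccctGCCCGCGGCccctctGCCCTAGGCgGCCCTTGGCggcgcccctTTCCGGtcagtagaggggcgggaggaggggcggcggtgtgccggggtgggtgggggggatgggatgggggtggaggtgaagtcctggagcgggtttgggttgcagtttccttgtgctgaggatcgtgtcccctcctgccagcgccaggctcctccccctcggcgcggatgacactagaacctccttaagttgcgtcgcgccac
Elf5 downstream start: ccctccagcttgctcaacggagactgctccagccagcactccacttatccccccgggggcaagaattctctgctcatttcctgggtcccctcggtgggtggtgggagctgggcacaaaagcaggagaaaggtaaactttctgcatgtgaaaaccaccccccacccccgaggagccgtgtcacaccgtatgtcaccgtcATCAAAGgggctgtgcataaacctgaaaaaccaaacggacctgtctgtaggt

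The TCF/LEF letters were found in 1 of the 9 promoters, the downstream start of Elf5, with the first base at -52 from the start. Of all 32851 mouse promoters of this length in the set, 3.21% held them. Id4 held none of the 6 motifs in this window. ETS letters were found in Gata3 (first base at -203) and at the downstream start of Runx1 (-106), and 12.0% of all promoters held them. AP-2 letters were found in Gata3 at -246, -231 and -221 and at the upstream start of Runx1 (-55), against 13.7% of all promoters. The forkhead letters occurred in Foxa1 (-141), against 3.17% of all. GATA and RUNX letters, held by 9.99% and 4.40% of all promoters, occurred in 0 of the 9. A match says only that these letters are present.

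Relatives of the factors were read from a list of 21 genes of the same families, of which 18 were tested. At 3 µM 4 rose and 1 fell, where 29.9% of all genes rose and 27.7% fell. The median log2 change of the relatives was 0.18 against -0.03 for all genes. With the culture as a block 8 rose and 6 fell, where 68.9% of genes passed. Tfap2a, which encodes AP-2α, rose 3.37-fold (log2 1.75 ± 0.27, adjusted p = 0.00039), from 56.9 ± 17.2 to 192 ± 10.2 CPM. Bcl11b rose 2.99-fold (adjusted p = 0.000186), Trp53 1.68-fold (8.79e-05) and Cbfb, the partner of Runt-domain proteins, 1.28-fold (0.00932). Runx2 fell 2.25-fold (adjusted p = 0.0114), from 36.3 ± 5.16 to 16.1 ± 9.11 CPM. The other Id genes did not pass without the block, with log2 differences of -0.39 for Id1, -0.67 for Id2 and -1.75 for Id3 (adjusted p = 0.757, 0.313 and 0.173). With the culture as a block Id2 (-0.67, adjusted p = 0.0163) and Id3 (-1.47, 0.000918) passed, as Id4 did, and Id1 did not (-0.12, 0.687). Trp73 passed in neither fit, at 0.11 (0.793) without the block.

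Of 27 other regulators of the mammary lineages, 11 rose and 8 fell at 3 µM (median -0.25, against -0.03 over all genes). Over all genes 29.9% rose and 27.7% fell. With the culture as a block 12 of the regulators rose and 10 fell, where 68.9% of genes passed. Ovol1, an epithelial zinc-finger factor, rose 13.9-fold (adjusted p = 6.36e-05), from 5.8 ± 3.15 to 81.5 ± 10.5 CPM. Klf5, a Krüppel-like factor of proliferating epithelium, rose 7.87-fold (adjusted p = 7.23e-05). Pgr, the progesterone receptor of hormone-sensing cells, fell 9.7-fold (adjusted p = 0.0134), from 7.69 ± 6.12 to 0.788 ± 0.337 CPM. In cultures 1, 2 and 3 it was at 4.27, 4.06 and 14.8 CPM in DMSO. At 3 µM it was at 0.549, 0.642 and 1.17 CPM. Hey1, a Notch target, fell 8.45-fold (0.000298) and Tbx2 fell 7.54-fold (0.000518).

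Of 12 basal genes 9 rose and 1 fell at 3 µM (median 1.24), where 29.9% and 27.7% of all genes did. The largest rises were those of the keratins Krt17 (29.3-fold, adjusted p = 1.30e-05), Krt14 (14.3-fold, 1.86e-05) and Krt5 (10.7-fold, 1.62e-05). The laminin subunit Lama3 rose 3.1-fold (0.000681). All 7 contractile genes of myoepithelium fell (median -5.25), among them the oxytocin receptor Oxtr (137-fold, 0.000154) and the smooth muscle genes Myl9 (127-fold, 2.19e-05), Cnn1 (46.7-fold, 0.00637), Myh11 (38.0-fold, 0.000103) and Tagln (24.1-fold, 8.15e-07). Of 19 luminal genes 6 rose and 6 fell (median 0.37), shares close to the 29.9% and 27.7% of all genes, and 9 rose and 7 fell with the culture as a block. Lalba, a milk protein, was at 10.3, 24.9 and 232 CPM in DMSO and 2.35, 1.67 and 2.42 CPM at 3 µM. Its DMSO mean rests on culture 3, and it fell 41.6-fold (adjusted p = 0.0116), or 22.8-fold with the block. Ltf rose 23.5-fold (0.00223), Areg 22.5-fold (4.61e-06), Prom1 7.43-fold (1.54e-05) and Cldn4 5.62-fold (0.00187). Ltf was at 82.3, 27.8 and 20.1 CPM in DMSO and at 1447, 1483 and 144 CPM at 3 µM. The other luminal genes that fell were Krt8, Krt18, Krt19, Prlr and Aldh1a3, and the others that rose were Krt7 and Cldn7.

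**Figure D4:**
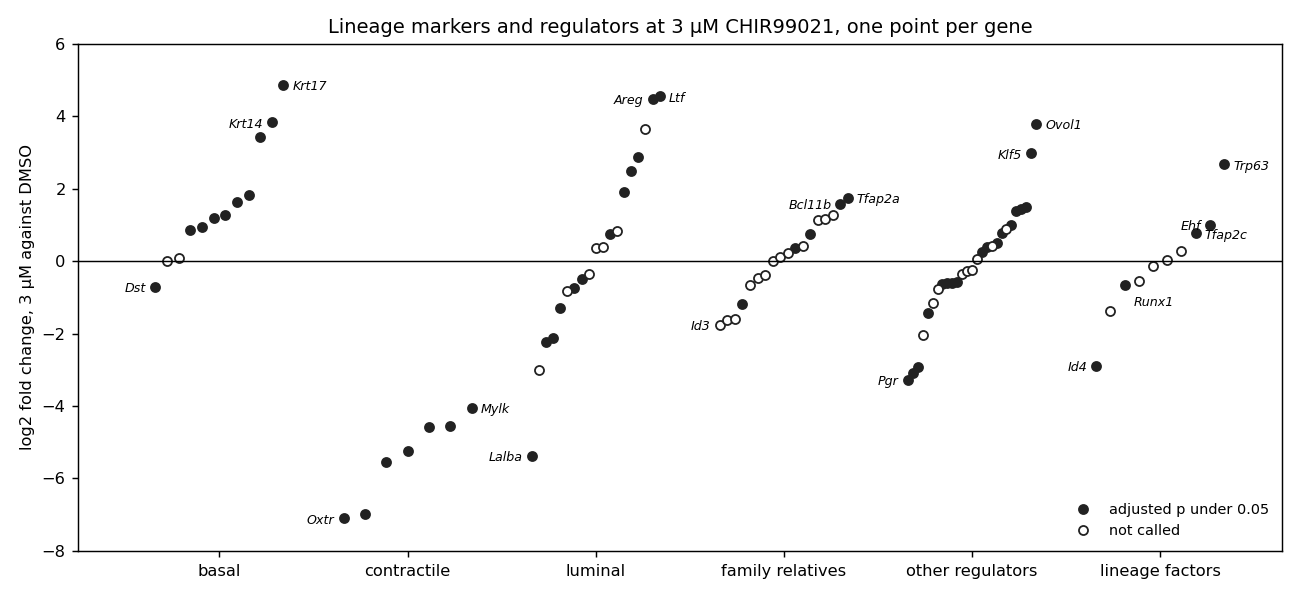
Log2 fold change at 3 µM against DMSO for each gene of 6 lists, sorted within a list, with filled points for an adjusted p under 0.05. The lists hold 12 basal, 7 contractile and 19 luminal genes, 18 tested family relatives, 27 other regulators and the 10 lineage factors. All 7 contractile genes lie below 0, and Trp63 and Id4 are the extremes of the lineage factors.

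Genes of other programmes and cell types moved in the same libraries, where 29.9% of all genes tested rose and 27.7% fell at 3 µM. All 14 genes of squamous differentiation rose at 3 µM, with a summed level of 102 to 162 CPM in DMSO and of 12080.4 to 36874 CPM at 3 µM, and all 8 proliferation genes rose. Their part in the values of the lineage factors was not tested. The 4 adipocyte genes (2989 to 8054 CPM in DMSO, 36.0 to 227 CPM at 3 µM) and the 5 endothelial genes (243 to 503 CPM, 27.1 to 86.6 CPM) all fell. Of 9 immune genes 7 were tested and 6 fell, with sums of 277 to 2624 CPM in DMSO and 40.4 to 118 CPM at 3 µM. Cd3e, which was not tested, was close to 0 at every dose (mean 0.0359 CPM in DMSO) and at 0 in all 3 libraries at 1.5 µM. Of 10 fibroblast genes 1 passed (Postn, lower), and 8 with the culture as a block. The summed luminal level lay between 3899 and 6716 CPM in all 12 libraries, while its members moved in opposite directions. From DMSO to 3 µM the mean of Krt19 went from 967 ± 443 to 224 ± 20.5 CPM (SD, n = 3) and that of Ltf from 43.4 ± 33.9 to 1025 ± 763 CPM. The sum of the 10 lineage factors lay between 1061 and 2236 CPM. Of 4 WNT pathway genes Axin2, Tcf7 and Znrf3 rose and Lgr5 fell.

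**Figure D5:**
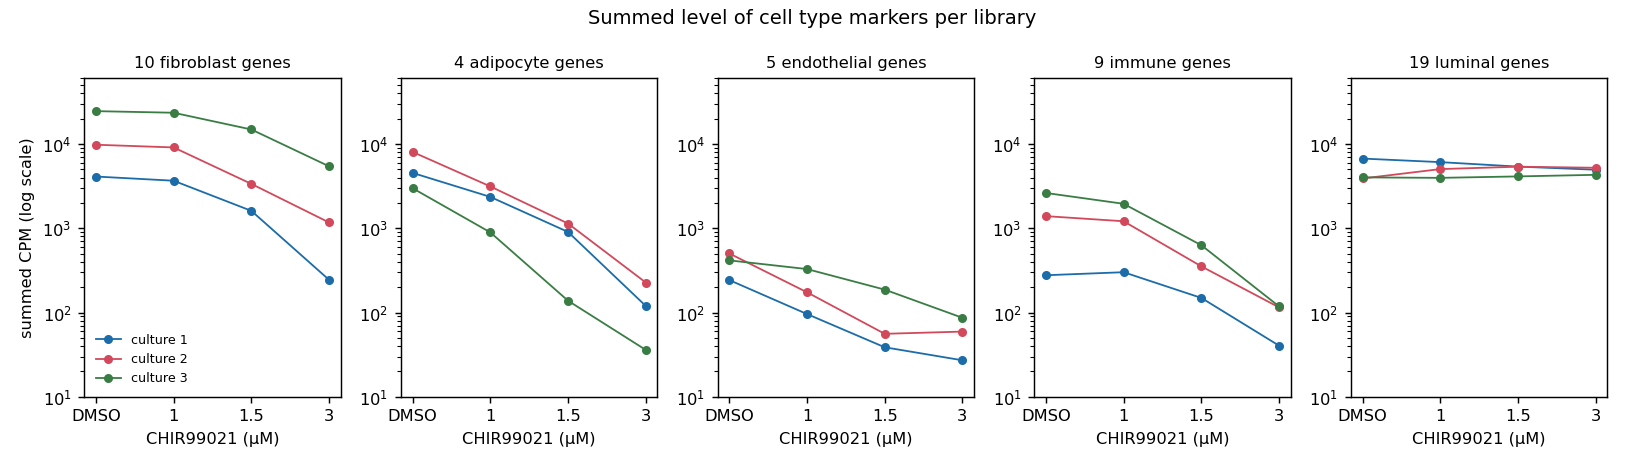
Summed CPM of marker genes in each library, on a log scale, against the CHIR99021 dose at even spacing, for 4 other cell types and for luminal epithelium. Each line is 1 culture. The 10 fibroblast genes are the highest in culture 3 at every dose, and the luminal sum lies between 3899 and 6716 CPM.

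The genes whose levels ran most like each of 5 factors over the 12 libraries were taken from 12439 genes by Pearson's r of log2 CPM, as a description of libraries that share dose and culture. For Trp63 these were 1810022K09Rik (r = 0.992), Tns4 (0.992) and Cldn25 (0.991). For Id4 they were Hs6st1 (0.95), Col4a5 (0.95) and Acvr2b (0.943). For Gata3 they were Mnt (0.986), Magi3 (0.955) and Zfp418 (0.941), and for Elf5 they included Uri1 (0.959) and Zfp191 (0.956). For Foxa1, whose counts were low, they were Yam1 (0.917), Npas2 (0.855) and Tm9sf2 (0.851).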

How the data were processed

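The authors deposited raw read counts per Ensembl gene for 12 libraries of polyadenylated RNA (stranded kit, per the labels' protocols), and a table of log2 values. The deposited log2 table is the counts scaled to a fixed library total, plus 1, on a log2 scale, with 0 values differing by more than 1e-06, and was not used. TopHat2 2.1, Bowtie 1.1.0, HTSeq, DESeq2 and the build GRCm38 (mm10) are named in the submitters' processing notes without a role, and the annotation release and strand setting of the counting are not given in the sources used here. Columns that matched no sample numbered 0.

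Genes passed filterByExpr on the 4 groups (minimum count 10), which left 15316. Each comparison was a contrast of group means in edgeR 4.0.16 (R 4.3.3, TMM scaling, glmQLFit with robust estimation, glmQLFTest, two-sided) over all 12 libraries, with Benjamini-Hochberg adjustment over all genes and a threshold of 0.05. A slope used dose in µM with DMSO at 0. The SE of an edgeR log2 fold change is its absolute value divided by the square root of the F value of glmQLFTest. It is thus derived from the test. Log2 CPM has a prior count of 2. Lengths are exon unions of GENCODE M21, which places 95.3% of the table's genes within 1000 bp of the same start. Alternatives were the culture as a block, DESeq2 1.42.0, library sizes alone, no filter, only the compared groups and leaving out each library. Only the first of these paired the libraries. Scaling to Epcam and Cdh1, leaving out culture 3 and the culture tests were chosen after seeing the data.

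Replicate numbers pair the libraries, since each number is 1 animal. Deviations from group means correlated from 0.177 to 0.840 in 18 same-number pairs (median -0.212 in 36 other pairs). Deviations within a group sum to 0, so the values of the other pairs are not independent of the former. The block took edgeR's biological coefficient of variation from 0.305 to 0.156. The members and gene lists were chosen with earlier results of these data known. Genes named from a list are those called at 3 µM with the largest change, up to 5, averaging at least 50 counts, and likeness names 3 genes per factor. Of the genes these rules name, 2 are not reported here. Names of other list genes were chosen after their values were seen. Of the fits, only the unblocked edgeR contrast of 3 µM with DMSO was tested on simulated counts, which held no differences between cultures.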

Additional observations from a re-analysis of the deposited data

How the results depend on the processing

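Depth limits Foxa1, and 3 animals a group limit every test. With the culture as a replicate block, the number of factors called was 6 instead of 3 at 1.5 µM, 2 instead of 0 from 1 to 1.5 µM, and 7 instead of 3 from 1.5 to 3 µM. From 1 to 3 µM it was 7 instead of 4, against DMSO it stayed 0 at 1 µM and was 6 instead of 5 at 3 µM, and on the slope it was 5 instead of 4. The calls gained were Bcl11a, Elf3 and Tfap2c at 1.5 µM, Gata3 at 3 µM and on the slope, Ehf and Trp63 from 1 to 1.5 µM, Bcl11a, Elf3, Elf5 and Gata3 from 1.5 to 3 µM, and Ehf, Elf3 and Gata3 from 1 to 3 µM. The block changed no other call of a factor. At 1 µM DESeq2 called 1 factor instead of 0. At 1.5 µM the count was 1 without a filter, 1 with only the compared groups, 0 with scaling to Epcam and Cdh1 and 6 without culture 3. From 1.5 to 3 µM it was 5 with library sizes alone and 6 without culture 3.

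Leaving out 1 library at a time gave 0 to 5 called factors at 1.5 µM, 5 to 6 at 3 µM, 2 to 4 from 1.5 to 3 µM, 3 to 5 from 1 to 3 µM, 4 to 6 on the slope, and 0 to 0 at 1 µM and from 1 to 1.5 µM. Of the called differences, that of Runx1 at 1.5 µM reversed, to -0.13 with scaling to Epcam and Cdh1. That scaling moved the median log2 change of all genes to -0.54 at 1.5 µM and -0.47 at 3 µM, and library sizes alone moved it to -0.23 at 3 µM. At 1.5 µM the scaled value of Runx1 was above that median. Over single factors and alternatives other than leaving out 1 library, 429 values kept their side of the threshold, 37 gained a call, 12 lost one and 1 reversed. In the fit with only the compared groups, Foxa1 from 1 to 1.5 µM was not tested. The cause of these changes was not tested.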
